A study of Petunia x hybrida with 9 samples.

Results

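MYB transcription factors were followed in corollas of the petunia cultivar Mitchell (Petunia hybrida), which has white flowers and emits scent in the evening. An assembled petunia locus was taken as a member when the description of its best tomato protein held MYB at the start of a word, or R2R3, ahead of the InterPro entry, and did not name a late elongated or circadian protein. This gave 469 of 94534 loci, which matched 111 of the 16725 tomato proteins that had any match. FPKM (fragments per kilobase of locus, scaled to the fragments of the library) was summed over the loci of a tomato protein, and each such sum is called a member below. A member is therefore named by its closest tomato protein and is not a petunia gene with an established identity, and the median identity of the 469 loci to their tomato protein was 73.18%, against 82.46% for all loci with a match.

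The study compared 3 genotypes with 3 libraries each, namely wild type and the transgenic lines A4 and A9. These are both titled as overexpressors of PhADT. A label of a mutated site is carried by every sample, wild type too, so it does not tell whether the overexpressed form is a mutant. PhADT is an arogenate dehydratase of petunia, an enzyme of the closing step of phenylalanine synthesis. All groups were corollas of at least 8 flowers, taken at 20 h on day 2 after anthesis, with lights on from 6 AM to 9 PM. The promoter of the transgene and the number of plants are not given in the labels, and each line is a single transformant line by its label. Whether the 3 libraries of a genotype stand for different plants is not stated, so a p-value refers to the spread among these libraries, part or all of which may be technical. In whole corollas, fewer cells of a type and less RNA per cell cannot be told apart.

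MYB proteins bind DNA through repeats of about the same fold. Plants have an expanded group with a pair of such repeats, the R2R3 type, and many proteins with a single repeat, among them the SHAQKYF class, named for residues of that repeat. In petunia petals, R2R3 factors such as ODORANT1 and the EOB proteins are known to switch on genes of phenylalanine and volatile benzenoid synthesis in the evening, and others act with bHLH and WD40 partners on anthocyanin genes. No member carried a description with "odorant" or "EOB", so the annotation used here does not tell which member is one of these. Most members had only a family name, and no role is given for those.

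Several facts of the whole series touch the results. A dehydratase locus without wild-type signal (0.0389, 0 and 0 FPKM) reached 108, 80.8 and 97.0 FPKM in A9 but 0.0291, 0 and 0.0579 FPKM in the A4 libraries, so that group is called the A4-labelled libraries, by its label, throughout. Depth read from the steps of low values was between 30600000 and 43100000 fragments per library, and 1 FPKM corresponded to between 41.2 and 58.6 fragments at a locus of 1636 bases, the median length of a member locus. Between 1881 and 2078 loci were listed at 0 in wild-type libraries, against 633 to 1147 in those of the lines. No tomato description held a name of petal-identity MADS factors. Markers of carpel and stamen summed to between 0.676 and 1.42 FPKM in any library. The 13 pollen-named proteins summed to between 163 and 226 FPKM in wild type, between 129 and 152 FPKM in the A4-labelled libraries and between 157 and 183 FPKM in A9. The 52 photosynthesis proteins, used as markers of green tissue, summed to between 2055 and 2583 FPKM in wild type, to between 1182 and 1782 FPKM in the A4-labelled libraries, and to between 949.7 and 1435 FPKM in A9. Of the 39 of these that were measured, 17 fell and 3 rose in the A4-labelled libraries, and 22 fell and none rose in A9. Over all proteins tested, 19.7% fell and 20.8% rose in the former, and 13.5% fell and 13.2% rose in the latter. The part of these markers in the MYB results was not tested.

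In the wild-type evening corolla, MYB expression was concentrated in a few members. The 3 highest held 68.0% of the FPKM of all members, and the 10 highest held 84.8%. The highest, Solyc08g079270.2.1, was at 2360.4, 2477 and 2272 FPKM in the wild-type libraries and ranked 30 among all 16725 tomato proteins. Both loci of this member came from a single assembled gene and matched the tomato protein with at most 68.56% identity. Next came Solyc02g067760.2.1 at 1207, 1485 and 1442 FPKM and Solyc01g111500.2.1 at 1363, 1388 and 1283 FPKM, whose libraries overlapped, so their order is not set beyond their spread. Solyc10g055410.1.1 followed at 501, 518 and 444 FPKM, below every library of the first 3 and above every library of the members after it. The next 6 lay between 95.9 and 162 FPKM in single wild-type libraries and overlapped in part. Of these, Solyc10g005550.1.1 lay above every wild-type library of Solyc02g092930.1.1, Solyc06g071230.2.1 and Solyc04g005100.2.1, and Solyc06g065100.2.1 above every one of the last 2, while other neighbours overlapped. The median of the 92 measured members, those whose average reached 1 FPKM, was 7.91 FPKM in wild type, against 12.8 FPKM for all proteins that passed that limit.

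Most of the abundant members shared an assembly cluster, a group of contigs the assembler could not fully separate. Loci of Solyc02g067760.2.1, Solyc01g111500.2.1, Solyc10g055410.1.1, Solyc02g086690.2.1 and Solyc01g005660.1.1 all lay in cluster TR11875, and assembled gene c4_g3 of it held loci that matched Solyc01g111500.2.1 and others that matched Solyc10g055410.1.1. How reads were divided among these 5 members is therefore uncertain. The level of Solyc02g067760.2.1 rested for 75.5% on a locus of 443 bases. Solyc04g078420.1.1 and Solyc02g092930.1.1 shared another cluster. In all, 54 of the 111 members shared a cluster with another member, and Solyc08g079270.2.1 was not among them.

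The FPKM of the abundant members, as deposited, was lower in the lines than in wild type. Summed over all members, FPKM was 7261, 7852 and 7349 in wild type, 5658, 5717 and 5516 in the A4-labelled libraries, and 6212, 6148 and 6012 in A9, with no overlap between any of the groups. As a share of the FPKM of all loci, members held between 0.879% and 0.945% in wild type, between 0.719% and 0.769% in the A4-labelled libraries and between 0.740% and 0.795% in A9. The 4 highest members together went from 5581 ± 249 FPKM (SD, n = 3) in wild type to 3983 ± 130.0 FPKM in the A4-labelled libraries and 4353 ± 141 FPKM in A9, and the other 107 members from 1907 ± 77.4 FPKM to 1647 ± 40.4 and 1771 ± 45.3 FPKM.

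Solyc08g079270.2.1 was at 1735, 1837 and 1786 FPKM in the A4-labelled libraries and at 1793, 1946 and 1659.8 FPKM in A9. All 6 libraries of the lines were below all 3 of wild type, and those of the lines overlapped each other. On the scale of log2(FPKM + 1), used for every change given here, the member fell by 0.41 (SE 0.09, adjusted p = 0.00672) in the A4-labelled libraries and by 0.40 (SE 0.09, adjusted p = 0.0123) in A9. Both of its loci fell by about as much, XLOC_018421 by 0.41 and XLOC_018422 by 0.41 in the A4-labelled libraries.

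Solyc10g055410.1.1 was at 333, 313 and 314 FPKM in the A4-labelled libraries and 319.9, 337 and 288 FPKM in A9. The groups of the lines again lay wholly below wild type and overlapped each other. The changes were -0.60 ± 0.09 (SE), adjusted p = 0.000873, and -0.63 ± 0.09 (SE), adjusted p = 0.00156, and each of its 6 loci fell in both lines. Solyc01g111500.2.1 was at 1012, 983 and 911 and 1121, 1076 and 1002 FPKM, with changes of -0.47 ± 0.08 (SE), adjusted p = 0.00225, and -0.34 ± 0.08 (SE), adjusted p = 0.0189.

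Solyc02g067760.2.1 was at 975, 929.9 and 822 FPKM in the A4-labelled libraries, all below wild type, and at 1259, 996 and 1261 FPKM in A9, where 2 libraries lay above the lowest of wild type. It fell in the first (-0.60 ± 0.13 (SE), adjusted p = 0.00611) and did not pass the test in the second (-0.24 ± 0.13 (SE), adjusted p = 0.209). Of its 3 loci, XLOC_003203 and XLOC_003182 fell in the A4-labelled libraries, while XLOC_003206 did not pass the test (0.12 ± 0.12 (SE), adjusted p = 0.485). Some of these calls depend on the scaling. After quantile normalization between libraries, adjusted p-values in the A4-labelled libraries were 0.738 for Solyc08g079270.2.1, 0.105 for Solyc02g067760.2.1 and 0.3797 for Solyc01g111500.2.1. In A9 they were 0.204 for Solyc08g079270.2.1 and 0.501 for Solyc01g111500.2.1, and the change of Solyc02g067760.2.1 turned to 0.0046. The calls of Solyc10g055410.1.1 held in both lines under every alternative. In A9 the adjusted p of Solyc01g111500.2.1 was 0.0606 without replicate 1 of wild type, 0.0601 without replicate 2 of wild type and 0.0635 without A9 replicate 3, within a range of 0.0126 to 0.501 over all alternatives.

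The 6 members below these were more mixed. Solyc06g065100.2.1, described as Myb-like transcription factor 1, was at 155, 141 and 142 FPKM in wild-type corollas, 85.7, 81.7 and 75.1 FPKM in the A4-labelled libraries and 118, 94.4 and 109 FPKM in A9. The groups were fully ordered, with no overlap. It fell in both lines (-0.85 ± 0.10 (SE), adjusted p = 0.000219, and -0.45 ± 0.10 (SE), adjusted p = 0.00977), and further in the A4-labelled libraries (difference -0.40 ± 0.10 (SE), adjusted p = 0.0174). That difference did not pass the test without A4 replicate 3 (adjusted p = 0.0639), A9 replicate 1 (0.0555) or A9 replicate 3 (0.0514), nor with the highest locus alone (adjusted p = 0.665), which gave the upper end of the range from 0.00809. Part of it came from XLOC_089361, a locus of 280 bases that went from 32.02 ± 6.69 FPKM in wild type to 12.7 ± 5.003 FPKM in the A4-labelled libraries and stood at 30.2 ± 7.8 FPKM in A9.

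Solyc04g078420.1.1 was lower only in the A4-labelled libraries, at 76.9, 56.4 and 77.5 FPKM against 103, 156 and 122 FPKM in wild type and 104, 170.5 and 119 FPKM in A9. Every A4-labelled library was below every other library. The change was -0.84 ± 0.21 (SE), adjusted p = 0.0135 against wild type, and the difference between the lines was -0.88 ± 0.21 (SE), adjusted p = 0.0185. Without A4 replicate 2 the difference between the lines had an adjusted p of 0.0643, the highest over its alternatives, of which the lowest was 0.00968. Solyc02g092930.1.1, from the same cluster, was at 107, 142 and 121 FPKM in wild-type corollas, 94.9, 57.2 and 101 FPKM in the A4-labelled libraries and 121, 193 and 144 FPKM in A9. Its test passed between the lines (-0.86 ± 0.24 (SE), adjusted p = 0.0285) and not against wild type (adjusted p = 0.0819 and 0.403). Leaving out A4 replicate 2, A9 replicate 2 or A9 replicate 3 raised the adjusted p between the lines to 0.0703, 0.0722 and 0.0607, in a range that began at 0.0282.

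Solyc10g005550.1.1, a Myb-related factor, went from 145, 152 and 162 FPKM in wild type to 80.3, 139.7 and 101 FPKM in the A4-labelled libraries and 110.5, 107 and 86.6 FPKM in A9, and no line library reached wild type. It fell in both (-0.55 ± 0.18 (SE), adjusted p = 0.0391, and -0.60 ± 0.18 (SE), adjusted p = 0.0399). The calls were close to the threshold and were lost without any single wild-type library, with adjusted p-values up to 0.111 and 0.114 when replicate 3 of wild type was left out, and without A4 replicate 1 or 3 in the first (adjusted p = 0.105 and 0.103). In A9 they were also lost without A4 replicate 3 or any single A9 library, with adjusted p up to 0.126. After quantile normalization the adjusted p was 0.0996 and 0.0738, and with the highest locus alone 0.0544 and 0.0541. The lowest adjusted p over all alternatives was 0.00452 and 0.0114. Solyc04g005100.2.1 fell in the A4-labelled libraries, from 105 ± 12.3 FPKM (SD, n = 3) to 79.3 ± 10.8 FPKM (-0.40 ± 0.14 (SE), adjusted p = 0.0429). That call was lost without any single wild-type library, without A4 replicate 1 or 3 or without A9 replicate 3, with adjusted p between 0.05698 and 0.136, and after quantile normalization (0.1197), in a range from 0.00291. In A9 the same member was at 84.4 ± 11.5 FPKM, with an adjusted p of 0.124 and, with the replicate number as a block, of 0.0129. Solyc06g071230.2.1 did not pass the test in either line (adjusted p = 0.258 and 0.0552), although in A9 it did without replicate 1 of wild type (adjusted p = 0.0222, in a range from 0.0222 to 0.147).

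**Figure D1:**
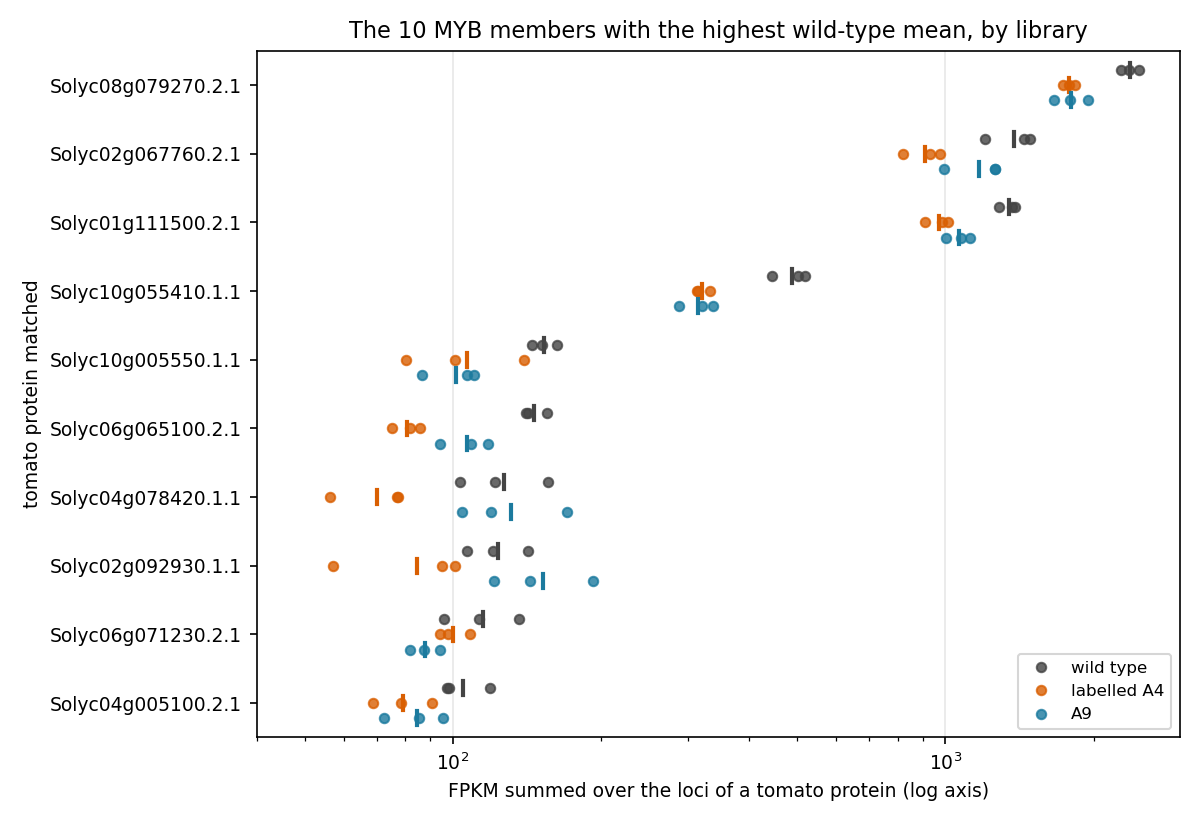
FPKM on a log axis for the 10 members with the highest wild-type mean, with a point for each of 9 libraries and a bar at the mean of each group. All libraries of both lines lie below wild type for Solyc08g079270.2.1, Solyc01g111500.2.1, Solyc10g055410.1.1, Solyc10g005550.1.1 and Solyc06g065100.2.1, and A9 is at the wild-type level for Solyc04g078420.1.1 while the A4-labelled libraries are not.

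Over the family, rises and falls were about equally frequent in the A4-labelled libraries. With limma, 24 of the 92 measured members rose and 21 fell, at a Benjamini-Hochberg adjusted p under 0.05 over 14288 tomato proteins. Over all proteins tested, 40.6% were called, 20.8% higher and 19.7% lower, so the 45 members called were not far above the background. In A9, 11 members rose and 17 fell, against a background of 26.7% called, 13.2% higher and 13.5% lower. After quantile normalization the split in A9 was 5 and 15. For both lines averaged and set against wild type, 17 rose and 26 fell, against a background of 37.1% called, 19.2% higher and 17.9% lower. After quantile normalization, 9 members rose and 23 fell in that comparison. The background shares are for FPKM as deposited and were not counted after quantile normalization. The median change of members was -0.05 in the A4-labelled libraries and -0.03 in A9, where that of all proteins was -0.02 and 0.01. Leaving out replicate 1 of wild type brought the number called in A9 to 18. Both comparisons share the wild-type libraries.

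With FPKM as deposited, abundant members were called lower and more of the low members higher, a split that depended on the scaling. Of the 9 members that averaged 100 FPKM or more over all libraries, 7 fell and none rose in the A4-labelled libraries, and 5 fell and none rose in A9. Among all proteins at that level, 33.0% fell and 13.6% rose in the former and 18.6% fell and 10.4% rose in the latter. Of the 30 members between 10 and 100 FPKM, 4 rose and 6 fell in the A4-labelled libraries, where 17.9% of all such proteins rose and 23.6% fell, and 2 rose and 4 fell in A9, where 10.9% rose and 15.1% fell. Of the 53 below 10 FPKM, 20 rose and 8 fell in the A4-labelled libraries, where 25.7% of all such proteins rose and 12.8% fell, and 9 rose and 8 fell in A9, where 16.4% rose and 10.6% fell. After quantile normalization, 3 of the 9 highest fell and none rose in the A4-labelled libraries, and 2 fell and none rose in A9. Of the 53 lowest, 11 rose and 11 fell in the former and 3 rose and 9 fell in the latter. The shares over all proteins above are for FPKM as deposited and were not counted after quantile normalization. Whether these counts differ from those of other proteins under that scaling is therefore not known. Single loci, which give more weight to members split into many contigs, showed more falls. Of 232 member loci tested, 22 rose and 69 fell in the A4-labelled libraries, against 32.1% of all 53284 loci called, 15.6% higher and 16.6% lower, and 12 rose and 41 fell in A9, against 19.2% called, 8.98% higher and 10.3% lower.

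**Figure D2:**
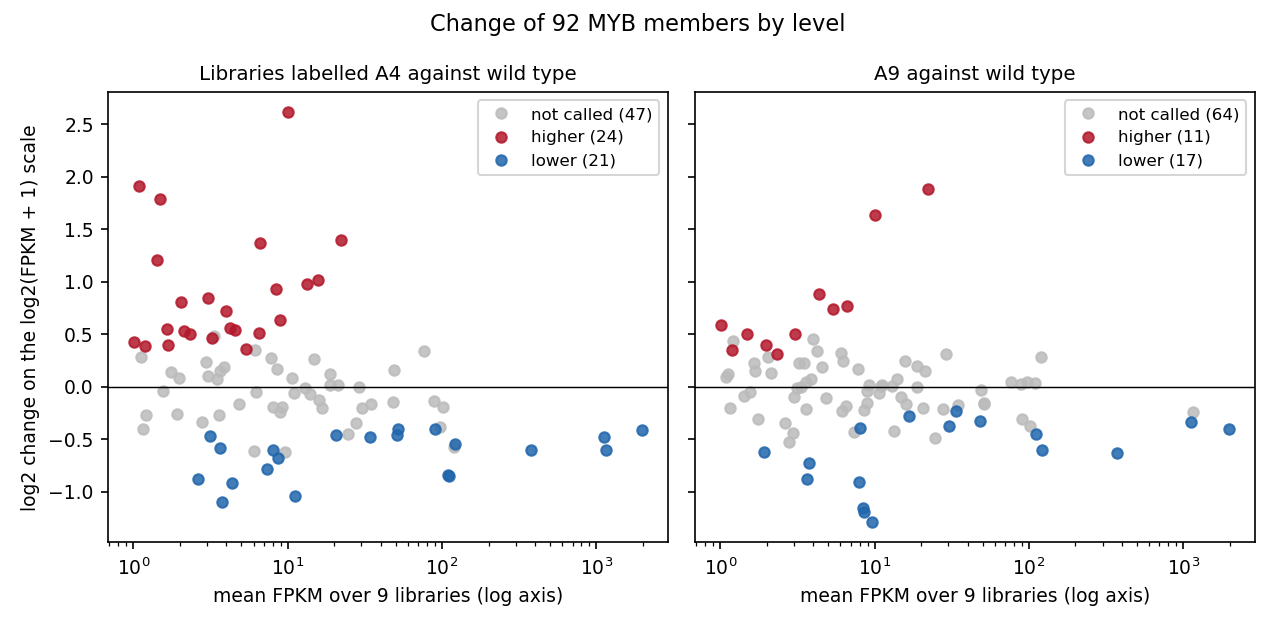
Change of the 92 measured members on the log2(FPKM + 1) scale against their mean FPKM over 9 libraries (log axis), for the A4-labelled libraries (left) and A9 (right) against wild type, with members past the threshold in colour. The members at 100 FPKM and above that passed the test lie below 0 in both panels, and most of the 24 rises on the left are of members below 10 FPKM. Values are FPKM as deposited, and after quantile normalization 11 members below 10 FPKM rose and 11 fell on the left.

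The largest rise among members of at least 5 FPKM in a group was that of Solyc10g086250.1.1, a member of the class that InterPro calls Myb transcription factor. It was at 1.98, 2.45 and 2.16 FPKM in wild-type corollas, 15.7, 16.7 and 24.3 FPKM in the A4-labelled libraries and 7.98, 8.005 and 10.97 FPKM in A9. The 3 groups did not overlap. The changes were 2.61 ± 0.17 (SE), adjusted p = 1.39e-05, and 1.63 ± 0.17 (SE), adjusted p = 0.000343, and the lines differed by 0.98 ± 0.17 (SE), adjusted p = 0.00482. All 3 calls held under every alternative.

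The rise of Solyc10g086250.1.1 was spread over several assembled genes of cluster TR6811, which did not all stand higher in the same line. Locus XLOC_086055 of assembled gene c0_g2, with 82.64% identity to the tomato protein, went from 0.615, 0.374 and 0.444 FPKM in wild type to 5.72, 7.03 and 9.92 FPKM in the A4-labelled libraries and 1.73, 1.098 and 1.78 FPKM in A9. Locus XLOC_086060 of assembled gene c0_g5, with 63.3% identity, went from 0.0436, 0.124 and 0.176 FPKM to 0.588, 0.403 and 0.618 FPKM in the A4-labelled libraries and 1.48, 1.87 and 1.98 FPKM in A9. The first was therefore highest in the A4-labelled libraries and the second in A9, with no overlap. Summed over its 2 loci, c0_g2 rose by 2.99 (SE 0.21, adjusted p = 1.76e-05) in the A4-labelled libraries and by 1.04 (SE 0.21, adjusted p = 0.00889) in A9. For c0_g5 the rises were 0.69 (SE 0.15, adjusted p = 0.00786) and 1.68 (SE 0.15, adjusted p = 0.000107). The difference between the lines was 1.95 ± 0.21 (SE), adjusted p = 0.000511, for c0_g2 and -0.99 ± 0.15 (SE), adjusted p = 0.00291, for c0_g5. Of the other 2 that were tested, c0_g3 rose in the A4-labelled libraries (1.502 ± 0.17 (SE), adjusted p = 0.000271), was 0.39 ± 0.17 (SE), adjusted p = 0.135, in A9, and was higher in the former (difference 1.11 ± 0.17 (SE), adjusted p = 0.00311). The other, c0_g4, which also holds loci of Solyc10g086270.1.1, rose in both (0.78 ± 0.14 (SE), adjusted p = 0.00323, and 0.49 ± 0.14 (SE), adjusted p = 0.039), with a difference of 0.29 ± 0.14 (SE), adjusted p = 0.179. Over 26128 assembled genes, 35.0% were called in the A4-labelled libraries against wild type, 22.6% in A9, 32.6% for the mean of both lines and 21.3% between the lines. These assembled genes were chosen after their values were seen.

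Solyc03g113620.2.1, a single locus of the SHAQKYF class, was at 2.395, 4.39 and 3.29 FPKM in wild-type corollas, 10.4, 9.69 and 10.03 FPKM in the A4-labelled libraries and 5.42, 5.65 and 8.02 FPKM in A9. The groups were ordered with no overlap, and it rose in both lines (1.37 ± 0.18 (SE), adjusted p = 0.000466, and 0.77 ± 0.18 (SE), adjusted p = 0.0142). Solyc10g084370.1.1, of the same class, was at 4.68, 13.3 and 7.09 FPKM in wild-type corollas, 18.96, 23.4 and 23.8 FPKM in the A4-labelled libraries and 20.4, 22.7 and 63.9 FPKM in A9. A9 replicate 3 stood far above every other library, and the changes had wide errors (1.40 ± 0.44 (SE), adjusted p = 0.0319, and 1.88 ± 0.44 (SE), adjusted p = 0.0146). In A9 the call was lost without replicate 1 of wild type (adjusted p = 0.0526, in a range from 0.00895). In the A4-labelled libraries it was lost without replicate 1 of wild type (0.105), replicate 3 of wild type (0.08597) or any single A4 library (0.05301, 0.0783 and 0.0894), in a range from 0.00668. Solyc05g007890.2.1, also of this class, rose most in A9, from 3.63, 3.61 and 4.32 FPKM to 6.84, 6.42 and 8.13 FPKM (0.74 ± 0.12 (SE), adjusted p = 0.00285), with 4.899, 4.68 and 6.12 FPKM in the A4-labelled libraries (0.36 ± 0.12 (SE), adjusted p = 0.0396). The call in the A4-labelled libraries was lost without replicate 1 or 2 of wild type (adjusted p = 0.109 and 0.108), A4 replicate 1 or 3 (0.0582 and 0.1303) or A9 replicate 1 (0.0534), after quantile normalization (0.0926) and with the highest locus alone, in a range from 0.00591 to 0.146.

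Other members passed the test as rises in the A4-labelled libraries and did not pass it as rises in A9. Solyc06g069850.2.1, a single locus, went from 10.98, 10.8 and 9.49 FPKM in wild type to 17.9, 21.5 and 25.97 FPKM (0.98 ± 0.14 (SE), adjusted p = 0.0008203) and was at 7.36, 6.498 and 8.79 FPKM in A9. Every A4-labelled library was above wild type and every A9 library below it. The A9 value did not pass the test (-0.42 ± 0.14 (SE), adjusted p = 0.0566), and did without A4 replicate 1 or 3 (adjusted p = 0.0366 and 0.0391) or A9 replicate 3 (0.0458) and after quantile normalization (0.0463), in a range from 0.0366 to 0.149. The lines differed by 1.41 ± 0.14 (SE), adjusted p = 0.000355. Solyc08g076710.2.1 rose from 2.73 ± 0.637 to 5.16 ± 1.04 FPKM (0.72 ± 0.17 (SE), adjusted p = 0.00914). Solyc08g005260.1.1, of the SHAQKYF class, rose from 5.82 ± 0.172 to 8.78 ± 0.627 FPKM (0.52 ± 0.10 (SE), adjusted p = 0.003005), and the lines differed by 0.70 ± 0.10 (SE), adjusted p = 0.00152.

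A short or distant locus held part of a pair of further rises. Solyc10g083340.1.1 rose from 10.96 ± 3.66 to 22.7 ± 4.17 FPKM (1.02 ± 0.28 (SE), adjusted p = 0.0175), and 36.6% of its level lay on a locus of 265 bases. Of the assembled genes that made up this member, TR45046 c3_g1 rose (0.85 ± 0.14 (SE), adjusted p = 0.00163), as did c2_g3 (0.50 ± 0.13 (SE), adjusted p = 0.0145), and neither c0_g1 nor c0_g2, which holds the 265-base locus, passed the test. The call was lost with the highest locus alone (adjusted p = 0.0872) and without replicate 2 of wild type (0.0545), A4 replicate 1 (0.0547) or A4 replicate 3 (0.0576), in a range from 0.0115. Solyc11g071500.1.1 rose from 7.47 ± 0.523 to 12.2 ± 0.277 FPKM (0.64 ± 0.08 (SE), adjusted p = 0.000327), and part of its level lay on XLOC_072332, a locus with 30.7% identity to the tomato protein that went from 1.78 ± 0.199 to 5.52 ± 1.24 FPKM. With loci of an e-value of at most 1e-10 alone, the adjusted p of the member was 0.284, the highest over its alternatives, which began at 0.000289.

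The largest fall in the A4-labelled libraries was that of Solyc03g119740.2.1, of the SHAQKYF class, from 6.21, 4.81 and 6.54 FPKM in wild type to 2.44, 2.04 and 2.07 FPKM, with 3.98, 2.43 and 3.05 FPKM in A9. All line libraries were below wild type and the lines overlapped. It fell in both (-1.10 ± 0.15 (SE), adjusted p = 0.000623, and -0.73 ± 0.15 (SE), adjusted p = 0.008796), under every alternative. Solyc05g009720.2.1, of the same class, fell in the A4-labelled libraries, from 13.3, 13.04 and 13.9 FPKM to 6.303, 4.97 and 6.86 FPKM (-1.04 ± 0.20 (SE), adjusted p = 0.00307), and spread from 9.68 to 18.5 FPKM around the wild-type level in A9. The lines differed by -1.06 ± 0.20 (SE), adjusted p = 0.00581. Solyc12g044610.1.1 fell in both lines, from 10.2 ± 1.03 to 6.36 ± 0.482 and 7.47 ± 0.292 FPKM (-0.60 ± 0.09 (SE), adjusted p = 0.000894, and -0.39 ± 0.09 (SE), adjusted p = 0.0122). Solyc05g052610.2.1 fell from 9.66 ± 1.16 to 5.21 ± 0.911 FPKM in the A4-labelled libraries (-0.78 ± 0.21 (SE), adjusted p = 0.0168), a call lost without replicate 1 of wild type (0.0555) or 3 (0.0528) or A4 replicate 3 (0.06401), in a range from 0.00386.

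In A9 the largest fall was that of Solyc03g098320.2.1, from 9.91, 20.3 and 13.8 FPKM to 4.93, 4.44 and 6.34 FPKM (-1.29 ± 0.24 (SE), adjusted p = 0.00537), with no overlap. Solyc04g080500.2.1 and Solyc12g089190.1.1, both of the class InterPro calls SANT, eukarya, and both with loci in cluster TR30057, fell in A9 from 12.7, 11.6 and 14.01 to 5.11, 4.86 and 4.99 FPKM (-1.20 ± 0.23 (SE), adjusted p = 0.00625) and from 10.7, 9.48 and 10.1 to 5.01, 5.06 and 4.64 FPKM (-0.91 ± 0.17 (SE), adjusted p = 0.00574). In the A4-labelled libraries they were at 12.3, 5.47 and 6.28 and 12.3, 7.09 and 7.39 FPKM. Replicate 1 of A4 lay within the wild-type range in the first and above every wild-type library in the second, and the other two A4 libraries lay below wild type in both. The first passed the test there (-0.68 ± 0.23 (SE), adjusted p = 0.0412) and lost the call when any of the libraries other than A4 replicate 1 was left out, with adjusted p between 0.0527 and 0.134, in a range from 0.000295. The lines differed in Solyc12g089190.1.1 by 0.71 ± 0.17 (SE), adjusted p = 0.0168, and the adjusted p was 0.0507 without A9 replicate 3, the highest in a range from 0.00646. Solyc07g049640.2.1 fell in A9 from 5.33 ± 1.38 to 2.42 ± 0.532 FPKM (-0.88 ± 0.19 (SE), adjusted p = 0.0108).

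**Figure D3:**
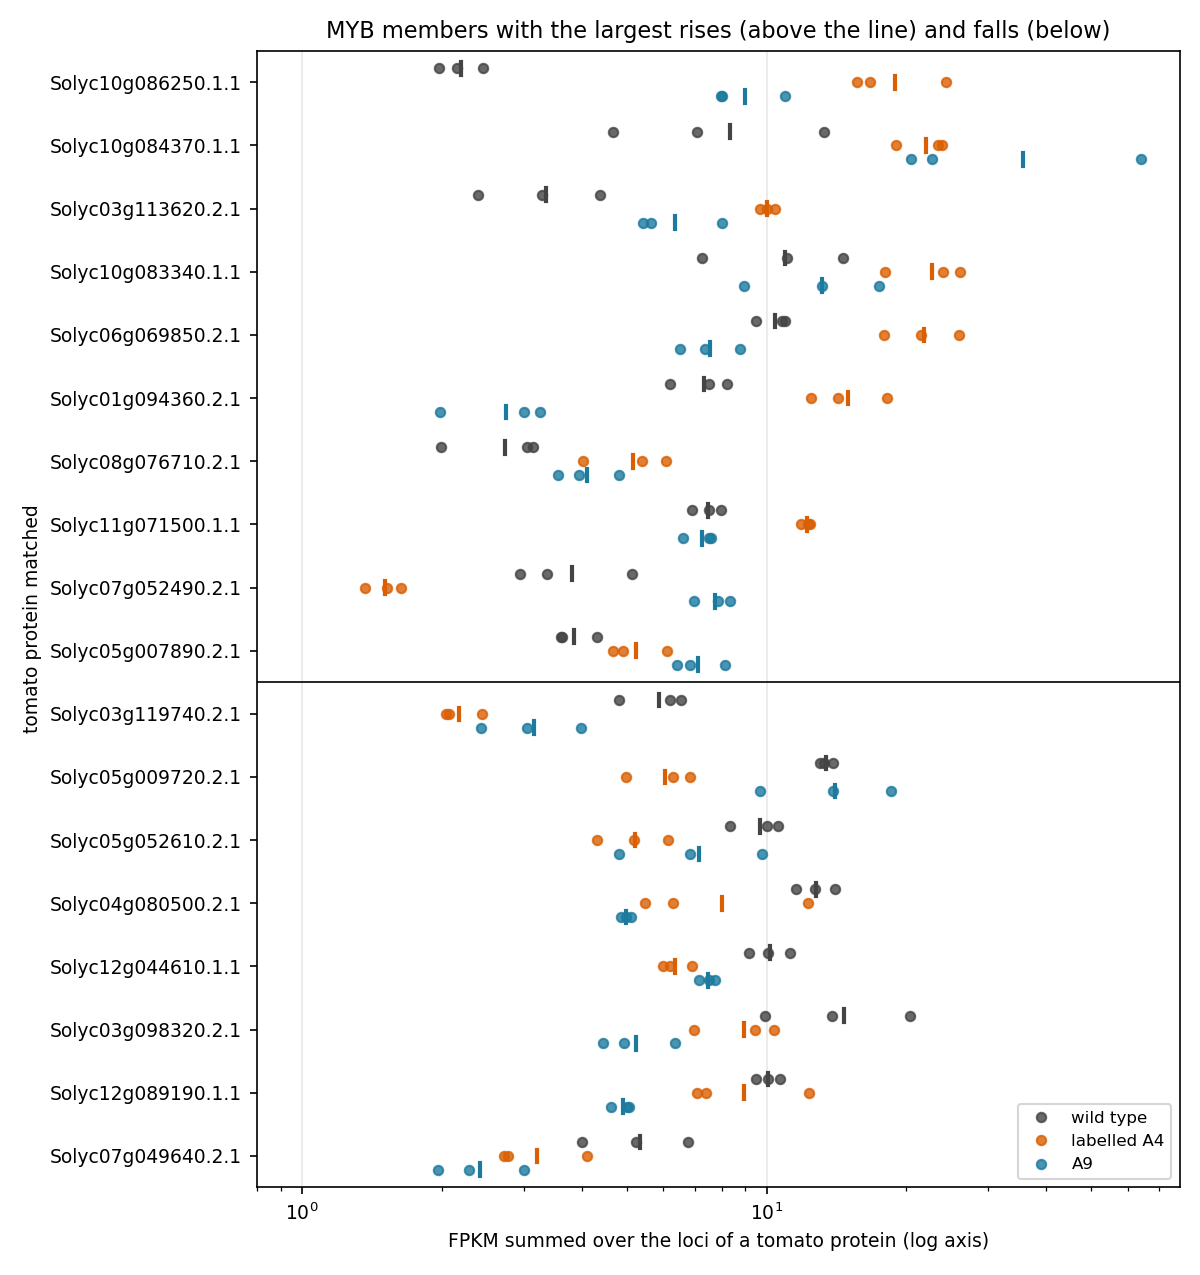
FPKM on a log axis of the members with the largest rises (above the line) and falls (below it) in either line among those that reached 5 FPKM in a group, with a point for each of 9 libraries and a bar at each group mean. Solyc10g086250.1.1 is highest in the A4-labelled libraries, Solyc01g094360.2.1 and Solyc07g052490.2.1 have wild type between the lines, and Solyc04g080500.2.1 and Solyc12g089190.1.1 have replicate 1 of A4 apart from the other two.

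The lines differed directly in 26 members, of which 14 were higher and 12 lower in the A4-labelled libraries, against 25.5% of all proteins called, 14.2% higher and 11.3% lower. The number called was 14 without A4 replicate 2, 17 without A4 replicate 3 and 16 without A9 replicate 1. In 2 members the lines went past the threshold on opposite sides of wild type. Solyc01g094360.2.1 was at 8.24, 6.19 and 7.53 FPKM in wild-type corollas, 14.3, 12.4 and 18.2 FPKM in the A4-labelled libraries and 3.003, 1.98 and 3.26 FPKM in A9. It rose in the former (0.93 ± 0.17 (SE), adjusted p = 0.00298) and fell in the latter (-1.16 ± 0.17 (SE), adjusted p = 0.00208), with a difference of 2.09 ± 0.17 (SE), adjusted p = 0.000153. The 3 loci that held most of its level, all of 1 assembled gene, each passed the test in both directions, and XLOC_028895 was at 2.9, 2.06 and 2.403 FPKM in wild-type corollas, 4.83, 4.92 and 6.85 FPKM in the A4-labelled libraries and 0.791, 0.578 and 0.905 FPKM in A9.

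Solyc07g052490.2.1, a single locus of 815 bases with 51.14% identity, went the other way. It was at 3.37, 5.14 and 2.94 FPKM in wild-type corollas, 1.63, 1.37 and 1.53 FPKM in the A4-labelled libraries and 8.34, 7.87 and 6.97 FPKM in A9, with no overlap between groups. It fell in the former (-0.92 ± 0.15 (SE), adjusted p = 0.00183) and rose in the latter (0.88 ± 0.15 (SE), adjusted p = 0.00432), with a difference of -1.80 ± 0.15 (SE), adjusted p = 0.0001703. The calls of both members in both lines held under every alternative that tested them. Another 2 members named after their values were seen were more abundant. Solyc11g006720.1.1 was at 57.7, 59.4 and 58.8 FPKM in wild-type corollas, 39.9, 45.9 and 41.5 FPKM in the A4-labelled libraries (-0.46 ± 0.08 (SE), adjusted p = 0.00196) and 52.3, 48.6 and 56.5 FPKM in A9. Solyc03g121990.2.1, which had 45 loci in 1 assembled gene, the most of any member, was at 60.7, 54.9 and 59.2, 43.4, 43.1 and 45.01 and 54.9, 52.6 and 49.1 FPKM in the same order and fell in the A4-labelled libraries (-0.40 ± 0.07 (SE), adjusted p = 0.00204).

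**Figure D4:**
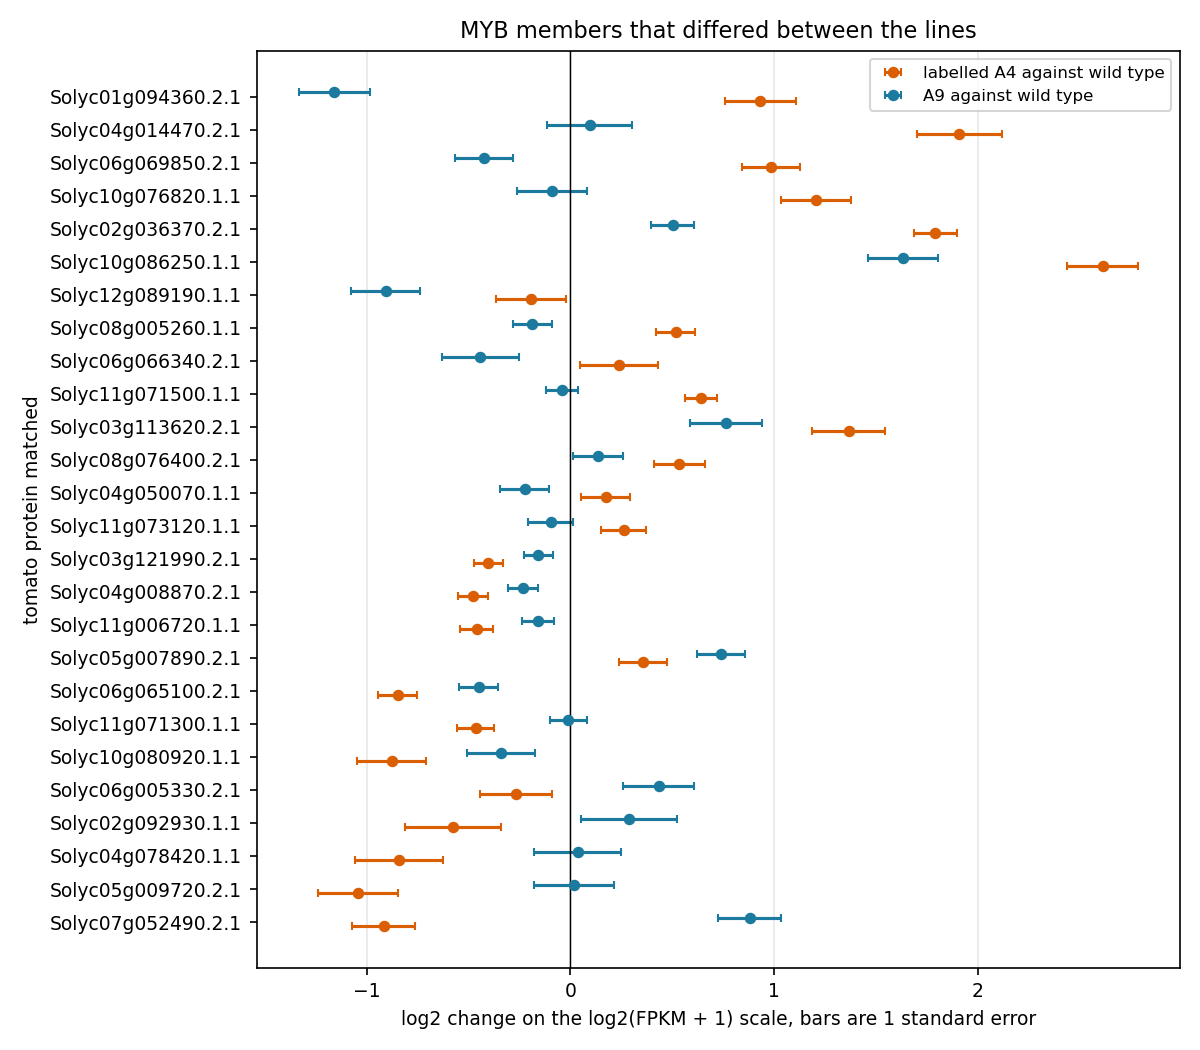
Change against wild type on the log2(FPKM + 1) scale in the A4-labelled libraries and in A9, with bars of 1 standard error, for the 26 members that differed between the lines, ordered by that difference. The first and last members have the lines on opposite sides of 0. Both changes share the wild-type libraries.

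By InterPro class, 51 members carried the Myb transcription factor entry, to which R2R3 proteins belong, and 34 of them were measured. In the A4-labelled libraries, 12 of these rose and 8 fell, and in A9 5 rose and 5 fell. Over all proteins tested, 20.8% were higher and 19.7% lower in the former, and 13.2% and 13.5% in the latter, which is also the background of the classes that follow. The class summed to 5954 ± 264 FPKM (SD, n = 3) in wild type, 4343 ± 104 FPKM in the A4-labelled libraries and 4859.7 ± 118 FPKM in A9. All 43 members of the SHAQKYF class were measured, and 11 rose and 9 fell in the A4-labelled libraries, and 5 rose and 8 fell in A9. Their sum was 751 ± 13.5 FPKM in wild-type corollas, 718 ± 31.8 FPKM in the A4-labelled libraries and 707 ± 42.8 FPKM in A9. Of the 4 members of the SANT, eukarya class, 2 fell in the A4-labelled libraries and 3 in A9, and none rose. Loci of 3 of the 4, Solyc04g080500.2.1, Solyc10g052470.1.1 and Solyc12g089190.1.1, lay in cluster TR30057. How reads were divided among them is uncertain, so these counts are not of separate genes. None of the 2 members with the histone H1 and H5 entry passed the limma test in any comparison, and 1 of them, Solyc01g106940.2.1, had an unadjusted p under 0.05 in A9 against wild type and between the lines.

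A few members carried a more specific description. Myb 12 is known from Arabidopsis and tomato as an activator of flavonol synthesis, and 2 members had that name. Solyc01g079620.2.1 was at 27.99, 30.6 and 32.1 FPKM in wild-type corollas, 17.04, 28.6 and 21.4 FPKM in the A4-labelled libraries and 22.9, 22.6 and 18.7 FPKM in A9. It did not pass the test in either line alone (adjusted p = 0.0583 and 0.0592), and in A9 the adjusted p was 0.0434 with the replicate number as a block, and 0.0262 and 0.0201 without A4 replicate 1 or 2, in a range from 0.0182 to 0.174. In the A4-labelled libraries it passed without A4 replicate 2 (adjusted p = 0.00754, the lowest in a range up to 0.161). There it also passed with the replicate block (0.0431) and with the highest locus alone (0.0249). For both lines averaged against wild type it fell (-0.46 ± 0.14 (SE), adjusted p = 0.0317). That call was lost without any single wild-type library, A4 replicate 3 or A9 replicate 3, with adjusted p up to 0.112. The other, Solyc06g009710.2.1, rose from 1.403, 1.05 and 1.1 FPKM in wild type to 2.06, 2.43 and 2.08 FPKM in the A4-labelled libraries (0.55 ± 0.10 (SE), adjusted p = 0.00321), with an adjusted p of 0.0586 after quantile normalization, in a range from 0.00225.

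MYB-CC proteins join a MYB repeat to a coiled coil and are known in Arabidopsis for the response to phosphate starvation. Of 4 such members, 3 were measured, and Solyc11g067280.1.1 fell in A9, from 53.7 ± 3.83 to 42.5 ± 1.65 FPKM (-0.33 ± 0.07 (SE), adjusted p = 0.0125), with an adjusted p of 0.129 for its highest locus alone, in a range from 0.00936. In this group, Solyc11g022470.1.1 (47.5 ± 2.88 FPKM in wild type) and Solyc10g078720.1.1 (1.45 ± 0.247 FPKM) did not pass the test in either line. Single myb histones are known in maize as proteins that bind telomere repeats, and none of the 3 members with that name passed the test in either line (1 at an unadjusted p under 0.05 in A9 and 0 in the A4-labelled libraries), with wild-type means of 20.3 ± 2.802 FPKM for Solyc11g044320.1.1, 10.6 ± 0.861 FPKM for Solyc07g040920.2.1 and 5.88 ± 0.589 FPKM for Solyc01g106940.2.1. Cyclin-D-binding Myb-like factors are known from mammals. Solyc08g007300.1.1 rose in the A4-labelled libraries (0.56 ± 0.15 (SE), adjusted p = 0.0159), with adjusted p = 0.0564 without replicate 1 of wild type, and 0.693 with its highest locus alone, in a range from 0.00683. Solyc08g066190.1.1 rose in A9 from 1.71, 1.55 and 1.66 to 2.77, 2.78 and 1.98 FPKM (0.40 ± 0.11 (SE), adjusted p = 0.0281), a call lost without any single wild-type library or A9 replicate 1 or 2, with adjusted p up to 0.0831 in those, and after quantile normalization, in a range from 0.0104 to 0.136.

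At the low end, 19 members did not reach a mean of 1 FPKM, with means between 0.128 and 0.889 FPKM, and were not tested. Of these, 17 carried the Myb transcription factor entry. The mean of the A4-labelled libraries was above that of wild type in 18 of the 19, and the A9 mean in 17. All A4-labelled libraries lay above all wild-type libraries in 11 of them. The share over all proteins below the limit was not counted, so these counts are not a result about the family. Fewer loci were listed at 0 in the lines, as given above, and the part of that in these counts was not tested. The nearest below the limit was Solyc10g086270.1.1, with a mean of 0.889 FPKM, and the nearest above it Solyc09g090130.2.1, with 1.01 FPKM. Among members just above it, Solyc04g014470.2.1 was at 0.0308, 0.0873 and 0.0309 FPKM in wild-type corollas, 2.53, 4.78 and 2.02 FPKM in the A4-labelled libraries and 0.137, 0.11 and 0.119 FPKM in A9. It rose in the A4-labelled libraries (1.91 ± 0.21 (SE), adjusted p = 0.000184), which also stood apart from A9 (difference 1.81 ± 0.21 (SE), adjusted p = 0.0006202). Solyc02g036370.2.1 was at 0.3003, 0.242 and 0.242 FPKM in wild-type corollas, 3.01, 3.18 and 3.97 FPKM in the A4-labelled libraries and 0.733, 0.771 and 0.859 FPKM in A9, and rose in both (1.79 ± 0.10 (SE), adjusted p = 7.62e-06, and 0.50 ± 0.10 (SE), adjusted p = 0.00895), in 7 loci of 4 assembled genes that were each below 1 FPKM on average. In A9 its adjusted p was 0.328 after quantile normalization, in a range from 0.00153. These members passed the limit through the group in which they were high, and were named after their values were seen. Their adjusted p-values are therefore not support for a rise. Both are also among the 24 rises counted in the A4-labelled libraries.

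Families and pathways that include known partners or targets of MYB factors were read from word patterns in the descriptions. Their counts stand beside 20.8% higher and 19.7% lower over all proteins in the A4-labelled libraries, and 13.2% and 13.5% in A9. Some bHLH and WD40 proteins form complexes with R2R3 factors, and whether those listed do was not tested. Of 41 measured bHLH and WD40 proteins, 10 rose and 7 fell in the A4-labelled libraries (median change 0.07) and 4 rose and 9 fell in A9 (median -0.01). The most abundant of these, Solyc04g005280.2.1, fell from 88.3 ± 12.2 to 60.03 ± 4.08 and 62.9 ± 3.93 FPKM (-0.54 ± 0.11 (SE), adjusted p = 0.00353, and -0.48 ± 0.11 (SE), adjusted p = 0.0113). Of 20 measured enzymes of phenylalanine supply, 2 rose and 11 fell in the A4-labelled libraries, with a median change of -0.38, and none rose and 8 fell in A9, with a median of -0.17. In the former the fall of the most abundant, the DAHP synthase Solyc04g074480.2.1, which opens the shikimate pathway, was from 6654 ± 595 to 4933 ± 82.4 FPKM (-0.43 ± 0.10 (SE), adjusted p = 0.009996), while A9 was at 7035 ± 319.7 FPKM. Of 45 phenylpropanoid and benzenoid enzymes, 7 rose and 18 fell in the A4-labelled libraries (median change -0.30), and 5 rose and 7 fell in A9 (median -0.11).

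Of 23 measured enzymes of flavonoid and anthocyanin synthesis, 9 rose and 3 fell in the A4-labelled libraries (median change 0.05), and 5 rose and 4 fell in A9 (median -0.03). The falls included Solyc03g080190.2.1, from 65.98 ± 22.2 FPKM in wild type to 3.89 ± 2.01 and 4.101 ± 2.23 FPKM (-3.79 ± 0.42 (SE), adjusted p = 0.000198, and -3.78 ± 0.42 (SE), adjusted p = 0.000463). This protein is described as flavanone 3-hydroxylase-like, and the description alone does not tell which reaction it carries out. Its fall does not stand for the list, where rises outnumbered falls in both lines. None of the 4 measured S-adenosylmethionine synthetases, which supply methyl groups to scent compounds, passed the test in either line with limma, nor did any have an unadjusted p under 0.05.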

How the data were processed

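RNA of corollas from 3 genotypes was sequenced, 3 libraries each. The authors deposited FPKM for each assembled locus in each library. Their deposited BLAST table lists, per the file headers, a best tomato hit for a locus, the percent identity of the match, a bit score, an e-value (up to 0.001) and a description. FastQC 0.11.2 and Bowtie2 2.2.6 appear in the submitters' processing notes, with no role. Which programs assembled the loci and computed FPKM, and whether libraries were scaled to each other, is not given in the sources used here. A mutated-site label is shared by every sample, controls too, so it defined no group.

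FPKM was summed per tomato protein. Sums averaging at least 1 FPKM entered limma 3.58.1 (R 4.3.3) as log2(FPKM + 1), in 1 fit of 3 group means on all 9 libraries with a trended variance prior. Calls used a Benjamini-Hochberg adjusted p under 0.05 over 14288 proteins. The pseudocount of 1 understates changes of low members. In simulated data for the comparison of A4 with wild type over 14288 features, 50 of 100 changes of 0.5 (log2) and 85 of 100 changes of 1 were recovered, with 5 false calls. The changes were placed only in features above the lowest levels, the noise was independent and normal, and all other features were left unchanged. In the data 40.6% of proteins were called in that comparison. The simulated figures therefore check the fit and do not give the recovery or false calls among the members. Single loci and assembled genes were fitted likewise. Because values are FPKM, no count model was run.

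Same-numbered replicates were checked for pairing by correlating deviations from group means across proteins. The correlations for replicates 1, 2 and 3 were 0.356, 0.489 and 0.221 between wild type and A9, and 0.269, 0.327 and 0.200 for A4 with A9. All of these were above 0.1, the limit set for pairing. Between wild type and A4 the values were 0.287, 0.313 and -0.129, so replicate 3 was below that limit. The highest correlation between unlike replicate numbers was 0.126 for wild type with A9, 0.181 for A4 with A9 and 0.256 for wild type with A4. Each of these lay above 0.1 too, so passing that limit does not show pairing. Numbers that pair A9 with both other groups would also pair wild type with A4, so the check gave no single answer. No label ties same-numbered replicates together, and whether they are paired is not settled. The p-values reported come from the fit without pairing, and the replicate block was run as an alternative.

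The members, lists and tests were chosen with earlier results of these data known. Named members are the 10 with the highest wild-type mean, and among called members that reached 5 FPKM in a compared group up to 8 of the largest rises and falls per line and 5 each way between the lines. All others printed with values were taken for their description, loci or place near the 1 FPKM limit, or after their values were seen. Alternatives were a pseudocount of 0.1, no filter or a mean of at least 5 FPKM, median-ratio and quantile scaling, a replicate block, the highest locus per protein, e-values of at most 1e-10, the compared groups alone and each library left out. Assembled genes in place of proteins were added after seeing the data.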

Additional observations from a re-analysis of the deposited data

Results flagged for a closer look

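In 2 members the lines passed the threshold on opposite sides of wild type, and the difference between the lines was itself tested with limma. Solyc01g094360.2.1 was higher in the A4-labelled libraries than in A9 by 2.09 on the log2 scale (SE 0.17, adjusted p = 0.000153), with 7.32 ± 1.04 FPKM (SD, n = 3) in wild type, 15.0 ± 2.93 FPKM in the A4-labelled libraries and 2.75 ± 0.676 FPKM in A9. Solyc07g052490.2.1 differed by -1.80 (SE 0.15, adjusted p = 0.00017), with 3.82 ± 1.16, 1.51 ± 0.132 and 7.73 ± 0.698 FPKM. The groups of each member did not overlap, and both differences were called under every alternative that tested them.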

How the results depend on the processing

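The number of members called was 45 in the A4-labelled libraries against wild type, 28 in A9, 43 for the mean of both lines and 26 between the lines. It moved by more than 1.5 times with a mean of at least 5 FPKM, which tested 56 members and gave 25, 18, 27 and 17, and with the highest locus alone, which gave 17 in A9. Leaving out a library gave ranges of 32 to 46, 18 to 28, 29 to 41 and 14 to 26, with the lowest in A9 without replicate 1 of wild type and the lowest between the lines without A4 replicate 2. These lowest counts in A9 and between the lines were also moves of more than 1.5 times. So were the counts between the lines of 17 without A4 replicate 3 and 16 without A9 replicate 1. With the replicate block the numbers were 50, 32, 45 and 32. Among the named changes of the comparisons with A9 the block ended no call and added those of Solyc04g005100.2.1 and Solyc01g079620.2.1 in A9 against wild type. Without a filter the split in the A4-labelled libraries was 34 higher and 21 lower, and with the highest locus alone 11 and 22. Quantile normalization kept 31 of the 45 calls in the A4-labelled libraries and 18 of the 28 in A9. With assembled genes, an alternative chosen after seeing the data, 58, 32, 48 and 30 were called. Of 70 named changes past the threshold, 41 kept their call under every alternative and 29 lost it under at least 1, and the cause was not tested. Of the 11 that did not pass, 6 did under some alternative. Changes of sign were limited to values that had not passed the test: Solyc02g067760.2.1 in A9 was 0.0046 after quantile normalization, and Solyc04g078420.1.1 in A9 ranged from -0.17 to 0.19 with a library left out. At a locus of median length 1 FPKM corresponded to 41.2 to 58.6 fragments, and the pseudocount of 1 understates changes of members near that level. How far depth or the pseudocount limited the calls of such members was not tested.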
